A study of Mus musculus with 62 samples.

Results

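The genes of glucose uptake and glycolysis described here were 10 members: Slc2a4, Hk2, Pfkm, Aldoa, Eno3, Pkm, Pygm, Gys1, Ldha and Pfkfb3. A member's regions were the peaks whose gene name in the deposited lists, the gene with the nearest annotated transcription start, was that member. Of 19221 genes named in the 16 histone mark lists, all 10 members were found, with 260 of 297760 H3K27ac peaks and 256 of 298522 H3K4me2 peaks. Acetylation of lysine 27 on histone H3 (H3K27ac) marks enhancers and promoters in use, and dimethylation of lysine 4 on the same histone (H3K4me2) is found at both, whether or not they are acetylated.

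The study profiled these marks by ChIP-seq in C57BL/6 mouse skeletal muscle, with 2 replicates for each mark in each of 8 groups. Sedentary wild-type mice gave quadriceps (Quad), extensor digitorum longus (EDL), diaphragm (Dia) and soleus (Sol), and 4 further groups were all quadriceps. Ex mice were wild type and ran voluntarily on wheels, Sed mice were their sedentary wild-type controls, mTg mice were sedentary and carried the transgene labelled PGC1a Tg(+), and Wt mice were the wild-type littermates of the mTg mice. A list of the mediator subunit MED1 per muscle, lists of the transcription factor NFAT in Quad and Sol, and a list of transposase-accessible (ATAC) peaks in control Quad were also used. For the histone marks, each quadriceps sample was a single muscle of a single male mouse, whereas the EDL, Sol and Dia samples each pooled several animals. For MED1 and NFAT, the Quad and Sol samples were also pools of several animals. The transgene was driven by the muscle creatine kinase promoter, which acts mainly in muscle fibers, and Ex muscles were taken within hours of the last run. The labels give no ages. All values are from whole tissue, in which fewer fibers of a type and less marked chromatin per fiber cannot be told apart.

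Muscle takes up glucose through GLUT4, the transporter encoded by Slc2a4, which moves to the cell surface on insulin or contraction, and hexokinase 2 (Hk2) traps the sugar as glucose 6-phosphate. The glycolytic enzymes phosphofructokinase (Pfkm), aldolase A (Aldoa), beta-enolase (Eno3) and pyruvate kinase (Pkm) carry it to pyruvate, which lactate dehydrogenase A (Ldha) reduces to lactate, and Pfkfb3 makes and removes fructose 2,6-bisphosphate, the allosteric activator of phosphofructokinase. Glycogen synthase (Gys1) stores glucose as glycogen and muscle glycogen phosphorylase (Pygm) releases it, and fast glycolytic fibers are known for high levels of these enzymes.

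Windows of accessible chromatin lay in several of the regions that the results turn on. In control Quad, 40 ATAC windows lay in member H3K27ac regions, at least 1 for each member. Outside annotated exons, 9 of these windows of 6 members touched a region whose mark differed over 2-fold between muscles. The 5 below are 1 for each of 5 members, chosen after their letters were seen because each holds a word searched for here. Of the windows not shown, 1 of Ldha and 1 of Pygm held none of the words. Sequences are the plus strand of the RefSeq copy of GRCm38 (mm10). Capitals mark any of 10 short words searched on both strands: CAGCTG (bound by myogenic basic helix-loop-helix factors), the MEF2 word, AGGTCA (the half-site of nuclear receptors), TCAAGGTCA (of estrogen-related receptors), ACGTG or GCGTG (the core of the hypoxia response element), CACGTG (of USF and MYC factors), TCAGGTT (of sine oculis homeobox factors), CATTCC (of TEAD factors) and GGGCGG (of SP and KLF factors). CACGTG contains ACGTG, and TCAAGGTCA contains AGGTCA.
Slc2a4, chr11:69955884-69956078: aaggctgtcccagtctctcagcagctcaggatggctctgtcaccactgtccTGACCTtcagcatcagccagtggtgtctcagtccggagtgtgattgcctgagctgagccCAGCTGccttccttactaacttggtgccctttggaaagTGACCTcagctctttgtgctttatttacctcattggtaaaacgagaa
Hk2, chr6:82807096-82807290: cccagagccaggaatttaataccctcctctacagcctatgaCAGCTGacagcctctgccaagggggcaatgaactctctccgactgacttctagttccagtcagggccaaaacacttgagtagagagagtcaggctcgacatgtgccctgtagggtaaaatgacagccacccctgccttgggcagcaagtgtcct
Pkm, chr9:59667342-59667536: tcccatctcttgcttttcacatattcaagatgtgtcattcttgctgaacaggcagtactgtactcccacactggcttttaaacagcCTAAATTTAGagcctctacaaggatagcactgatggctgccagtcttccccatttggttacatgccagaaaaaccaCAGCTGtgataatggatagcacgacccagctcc
Gys1, chr7:45444218-45444412: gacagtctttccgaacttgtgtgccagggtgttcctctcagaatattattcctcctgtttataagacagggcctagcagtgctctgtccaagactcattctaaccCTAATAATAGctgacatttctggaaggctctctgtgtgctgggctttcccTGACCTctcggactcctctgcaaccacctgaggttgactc
Ldha, chr7:46838931-46839125: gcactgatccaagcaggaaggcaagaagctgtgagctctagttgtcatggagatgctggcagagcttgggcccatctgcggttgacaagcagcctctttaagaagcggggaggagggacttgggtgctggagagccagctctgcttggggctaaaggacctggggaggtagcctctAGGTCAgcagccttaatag

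CAGCTG was found in 16 of the 40 member windows (40%), against 21.1% of all 44911 Quad ATAC windows. AGGTCA was found in 8 (20%), against 16%, and the MEF2 word in 2 (5%), against 2.07%. ACGTG was found in 12 (30%), against 13.1%. Of the other words, GCGTG was in 12 (30%), against 21.1%, CACGTG in 4 (10%), against 4.55%, and TCAGGTT in 2 (5%), against 3.21%. GGGCGG was in 10 (25%), against 21.6%, CATTCC in 2 (5%), against 11.5%, and TCAAGGTCA in 0, against 0.298%. The Slc2a4 window lies far upstream of the gene and holds CAGCTG and 2 copies of AGGTCA, the Pkm window in an intron holds CAGCTG and the MEF2 word, and the Gys1 window in an intron holds the MEF2 word and AGGTCA. A matched word is a description of the letters and not a site of binding.

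At the promoters, taken as the 250 bases before each annotated start in RefSeq, 17 promoters of 9 members had a sequence, and Slc2a4 had no entry. ACGTG was found in 10 of the 17 (58.8%), against 16.6% of 32851 promoters, and these 10 belonged to 7 members (Aldoa, Hk2, Ldha, Pfkfb3, Pfkm, Pkm and Pygm). The 17 are not all separate sequences: the Aldoa promoters with ACGTG overlap and share the same site, and some Pfkm promoters also overlap. GGGCGG was found in 8 of 17 (47.1%), against 32.7%, and CACGTG in 3 of 17 (17.6%), against 6.02%. AGGTCA was in 5 (29.4%), against 14.0%, GCGTG in 6 (35.3%), against 28.2%, and CAGCTG in 3 (17.6%), against 13.0%. CATTCC was in 2 (11.8%), against 12.6%, and TCAGGTT in 0, against 3.49%. The MEF2 word and TCAAGGTCA were in 0, against 0.508% and 0.387%. The promoters of Hk2 and Ldha are shown because both enzymes are textbook targets of the hypoxia-inducible factor and both promoters carry several copies. They are printed in the direction of transcription, Hk2 being on the minus strand.
Hk2 promoter, chr6:82774455-82774704: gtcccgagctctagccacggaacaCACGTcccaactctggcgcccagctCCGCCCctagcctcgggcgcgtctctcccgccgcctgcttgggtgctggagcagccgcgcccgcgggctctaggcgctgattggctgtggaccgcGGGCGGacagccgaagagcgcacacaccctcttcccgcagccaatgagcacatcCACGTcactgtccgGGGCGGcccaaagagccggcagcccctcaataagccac
Ldha promoter, chr7:46845554-46845803: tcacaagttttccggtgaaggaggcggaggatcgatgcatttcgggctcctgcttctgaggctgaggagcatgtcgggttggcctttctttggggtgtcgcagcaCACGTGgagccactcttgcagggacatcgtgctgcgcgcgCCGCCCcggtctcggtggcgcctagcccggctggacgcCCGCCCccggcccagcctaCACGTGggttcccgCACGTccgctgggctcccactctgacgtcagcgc

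Each list held between 26 and 42 H3K27ac peaks and between 23 and 38 H3K4me2 peaks of the members. Most lay inside genes: in EDL 17 of 26 H3K27ac peaks were intragenic, 7 were intergenic and 2 lay at promoters. Every member had an H3K27ac peak in all 8 groups, and every member had an H3K4me2 peak in all groups but Dia, where Eno3 had none. In Dia an H3K4me2 region of 18.1 kb at chr11:70644604-70662734 covered Eno3 but carried the name of the neighbouring gene Pfn1, so the absence reflects the naming rule. The first promoter of Pfkm was likewise covered by H3K27ac regions named Senp1, in all 8 groups.

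Total tags per histone library ranged from 6.41 M to 24.2 M tags (M, mega). The shallowest library was replicate 1 of mTg H3K4me2, and every mTg library held fewer tags than every library of the 4 muscles, Sed and Ex. Spearman correlations between the replicates of a list, over its regions, ranged from 0.875 to 0.976. Fast fiber markers (Myh4, Pvalb, Actn3, Tnni2) had H3K27ac peaks for 4 of 4 genes in every group, covering 53.2 kb in EDL, 45.4 kb in Quad, 26.3 kb in Dia and 12.7 kb in Sol. Slow fiber markers (Myh7, Tnni1, Tnnc1, Myl3) had peaks for 4 of 4 genes in Sol (32.9 kb) and Dia (17.8 kb), and for 2 of 4 in EDL and Quad. Each muscle label thus had its defining markers. In every group, peaks were also present at markers of endothelial cells (3 of 3), fibroblasts (2 of 2), immune cells (1 to 3 of 3) and adipocytes (1 or 2 of 4).

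The member genes carried long H3K27ac domains. The summed length of a member's peaks had a median of 16.4 kb in EDL and 14.9 kb in Quad, against 3.37 and 3.14 kb over all genes with a peak, and of 12.0 kb in Sol and 11.7 kb in Dia, against 3.05 and 3.02 kb. Hk2 had the longest coverage in all 8 groups, from 35.8 kb in Ex to 41.6 kb in Dia, which placed it at or above the 97.7th percentile of genes in each list. Slc2a4, although its main region was among the most heavily marked per kb, was covered over a short stretch, from 2.82 kb in Ex to 8.24 kb in EDL. Pfkfb3 had the widest range, from 11.8 kb in Dia to 36.0 kb in Wt.

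**Figure D1:**
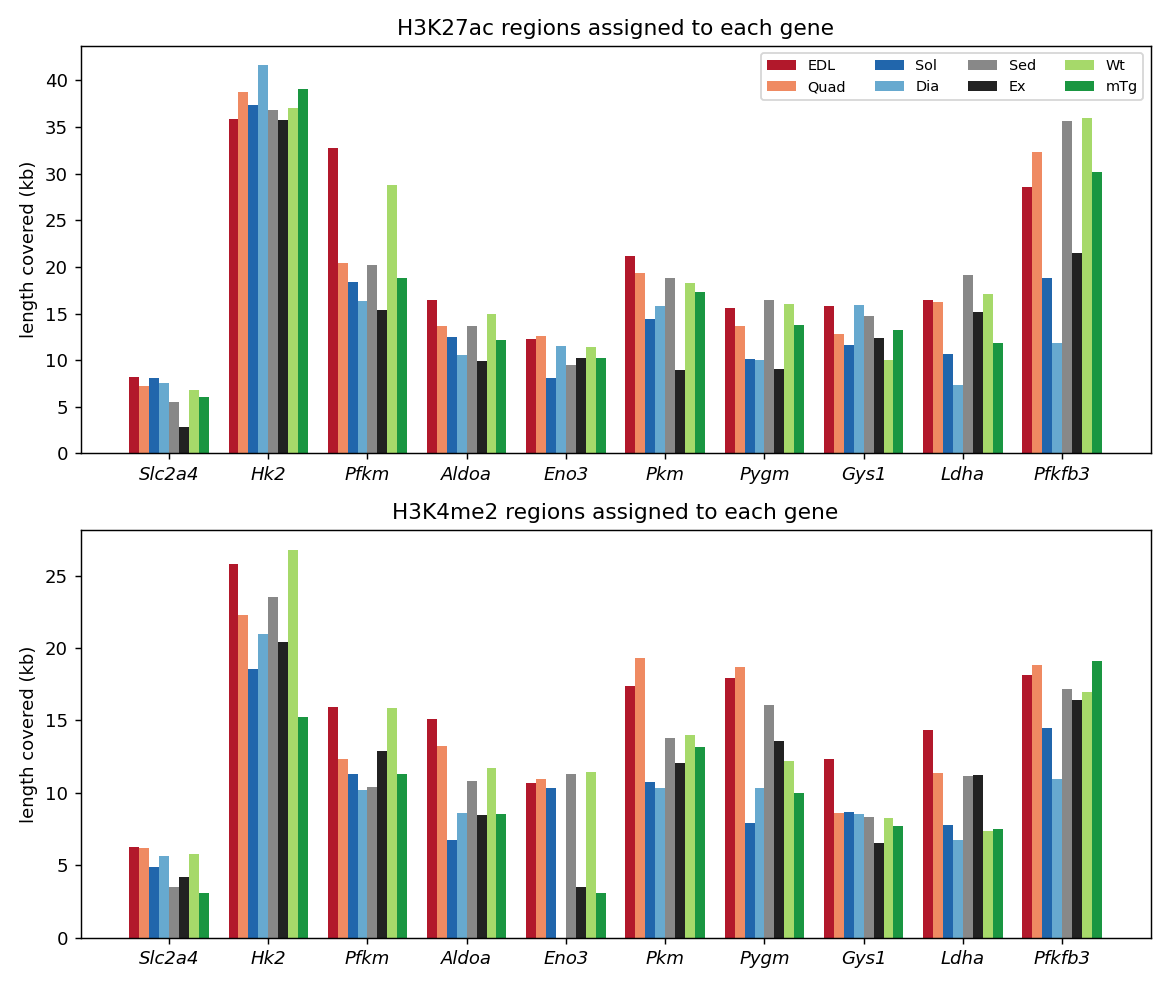
Summed length in kb of the peaks named for each member (bars, 1 list per bar, so no error bar) in the 8 groups, for H3K27ac and H3K4me2. Hk2 stands highest in every H3K27ac list (35.8 to 41.6 kb), and the missing bar is Eno3 H3K4me2 in Dia.

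Coverage was longer in the fast muscles for most members. For 7 of 10 members (Pfkm, Aldoa, Eno3, Pkm, Pygm, Ldha and Pfkfb3), both EDL and Quad had a longer H3K27ac total than both Sol and Dia, which was true of 30.4% of genes covered in all 4 muscles. Pfkm was covered over 32.8 kb in EDL and 20.4 kb in Quad, and over 18.4 kb in Sol and 16.3 kb in Dia. Part of this domain carried the name of the neighbouring gene Asb8 in Quad, Sol and Dia. With the whole of each merged domain counted, Pfkm had 32.8 kb in EDL, 31.4 kb in Quad, 25.8 kb in Sol and 26.6 kb in Dia, and the pattern was still found in 7 of 10 members. Ldha was covered over 16.4 and 16.2 kb in EDL and Quad, and over 10.6 and 7.36 kb in Sol and Dia. The members outside this pattern were Slc2a4, Hk2 and Gys1, the genes of uptake, phosphorylation and glycogen storage: Gys1 had 15.8 kb in EDL, 12.8 kb in Quad, 11.6 kb in Sol and 15.9 kb in Dia. For H3K4me2 the pattern was found in 8 of the 9 members covered in all 4 muscles, against 36.8% of genes. Slc2a4 and Hk2 were among these 8, and Gys1 was not. The lengths have no replicate error, since each list was called once over both replicates, and the number of peaks in a list and its depth bear on them.

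When overlapping regions of the 4 muscles were merged, the members had 30 H3K27ac loci, of which 18 (60%) were called in all 4 muscles, against a background of 37.4%. Only 4 loci (13.3%) were called in 1 muscle alone, against 31.8%. For H3K4me2, 19 of 36 loci (52.8%) were called in all 4, against 39.6%, and 9 (25%) in 1 alone, against 30.8%. In each muscle and for both marks, member regions had a longer median length than the list, and the backgrounds are not matched for length. The members thus shared most of their regions among muscles, and comparisons of level were possible at these shared regions.

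The level of a region was its deposited log2 tag value less the log2 of its length in kb. Within a list, the region of each member with the highest tag value, before division by length, was taken. Its level per kb lay above the 90th percentile of all H3K27ac regions for 8 of 10 members in EDL, Quad and Dia. The same held for 9 members in Sol, but for 6 in Sed and 5 in Ex. Another region of a member could be higher per kb, as the Pfkfb3 promoter was in EDL, so these are not counts of the highest levels. To set groups side by side, levels were expressed relative to the median, in the same library, of 6909 regions called in all 8 groups. Each list was normalized separately by the authors, so these relative levels carry no test. With 2 replicates a side, a two-sided exact permutation test could not go below a p of 0.333.

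The region over Slc2a4 and its promoter was well above the median of these regions in every library. On the relative log2 scale its replicates were 1.09 and 0.94 in Dia, 0.98 and 0.69 in Sed, 0.79 and 0.77 in EDL, and 0.76 and 0.80 in Quad. They were 0.76 and 0.74 in mTg, 0.60 and 0.64 in Wt, 0.54 and 0.37 in Sol, and 0.46 and 0.26 in Ex. Neighbouring groups in this order overlapped except Quad and mTg, mTg and Wt, and Wt and Sol. The Sed values are those of the wider of 2 peaks there. With the tags of both summed, Sed was at 0.67 and 0.38, which overlapped Wt, Sol and Ex. On either count EDL, Quad, Dia and mTg stood above both Sol and Ex. The region over Hk2, in contrast, spread from 1.09 and 0.90 in EDL to -0.32 and -0.36 in Ex. Between these lay Quad (0.77 and 0.66), mTg (0.66 and 0.62), Wt (0.60 and 0.58), Dia (0.58 and 0.38), Sol (0.52 and 0.10) and Sed (0.42 and 0.13). EDL stood above every other group and Ex, whose values were -0.36 and -0.45 with its 5 peaks there summed, below every other group, whereas Dia, Sol and Sed overlapped.

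**Figure D2:**
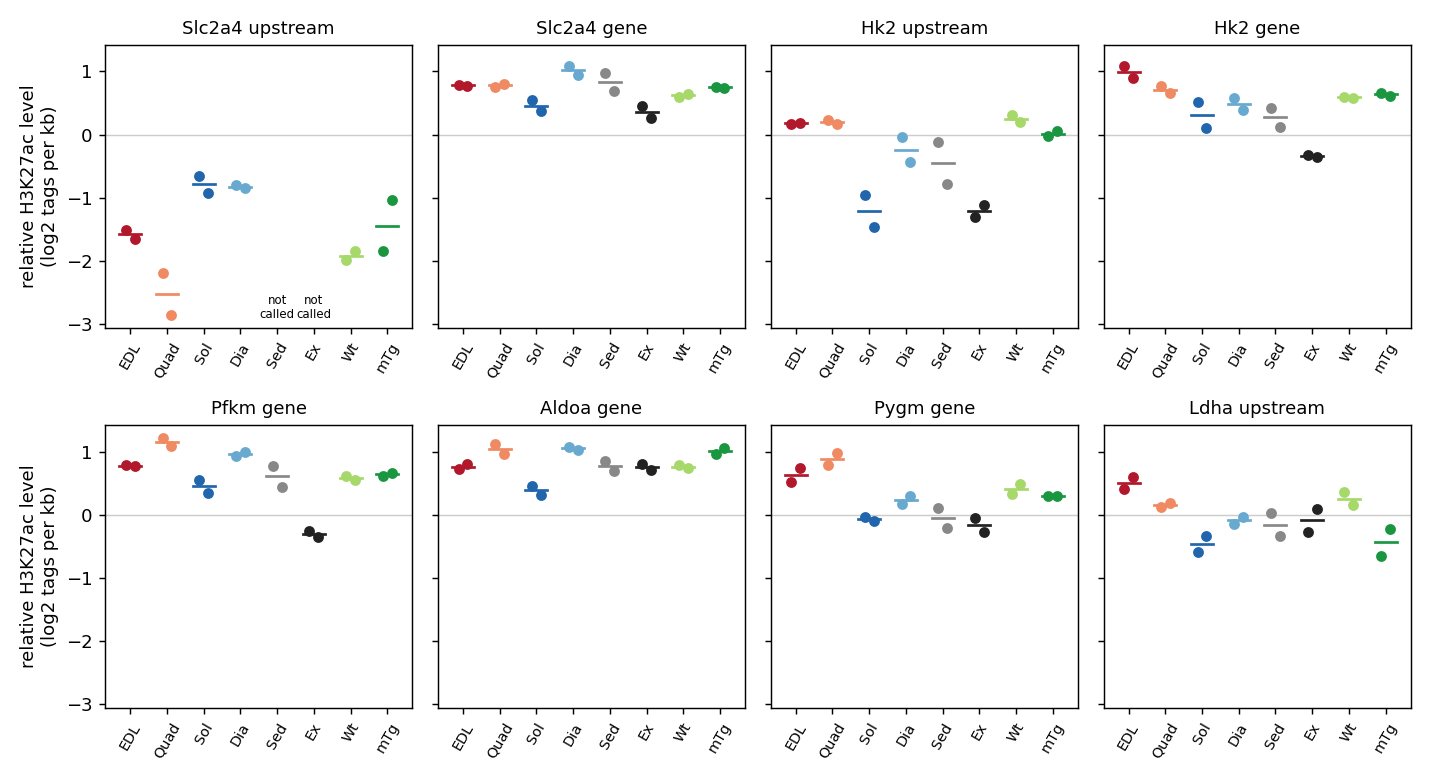
H3K27ac level at 8 member loci in each group, as log2 tags per kb relative to the median of the 6909 regions called in all 8 groups (points, single libraries; lines, means, n = 2; where a list splits a locus, its widest peak is drawn). The region over Hk2 is highest in EDL (1.09 and 0.90) and lowest in Ex (-0.32 and -0.36).

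Between muscles, a region was counted as apart when its level differed over 2-fold and its replicates were separate. For this the levels of each library were first centred on their median over all regions in both lists of the pair (matched by a reciprocal overlap of at least 50%). EDL and Quad, both fast muscles, had 1 of 21 member regions apart for H3K27ac, against 0.644% of shared regions. EDL and Sol had 2 of 14, against 2.88%, and Quad and Sol had 3 of 17, against 3.74%. EDL and Dia had 0 of 12, against 3.11%, Quad and Dia had 1 of 16, against 4.26%, and Sol and Dia had 2 of 22, against 1.65%. The counts are small. The direction was more uniform: 13 of 14 member regions were higher in EDL than in Sol, with a median difference of 0.58 on the log2 scale and a range of -0.61 to 1.57, while all shared regions together are split evenly by the centring. Among the 10% of shared regions of highest level, which held 6 of these 14, 25.6% were lower in EDL than in Sol. In Quad against Sol 14 of 17 were higher in Quad (median 0.42), and in Sol against Dia 19 of 22 were higher in Dia (median difference, Sol less Dia, -0.29), where among the regions of highest level 39.0% were lower in Quad than in Sol and 76.0% lower in Sol than in Dia. The other pairs were less uniform, with 12 of 21 higher in EDL than in Quad (median 0.08), 9 of 12 higher in EDL than in Dia (median 0.36) and 8 of 16 higher in Quad than in Dia (median 0.05). These pairs share libraries and are not independent of each other.

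The region far upstream of Hk2, at chr6:82805366-82808920 in EDL and -32689 bases from the start, was the member region of the largest EDL and Sol difference. Centred levels in EDL were 0.99 and 0.99, and in Sol they were -0.26 and -0.81, a difference of 1.57 on the log2 scale (2.96-fold). Quad, at 0.94 and 0.83, was also above Sol, at -0.29 and -0.85 (difference 1.5, 2.83-fold). Sol was low among all 4 muscles: the same region in Dia was at 0.66 and 0.32 against -0.32 and -0.86 in Sol, a difference of -1.07 that became -0.80 without Sol replicate 2 and -0.91 without Dia replicate 1. The Hk2 window printed above lies in this region. At the region over the gene body, the EDL and Sol difference was 0.87, under 2-fold, with replicates that did not overlap.

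The region upstream of Slc2a4 ran the other way. It lay at chr11:69955286-69956467 in Quad, -7686 bases from the start, in intergenic sequence. Its level was lowest in Quad, at -1.49 and -2.19, against 0.01 and -0.32 in Sol (difference -1.64, 3.11-fold). Against Dia the difference was -1.74, with Quad at -1.55 and -2.23 and Dia at -0.11 and -0.12. EDL, at -0.66 and -0.83, was also above Quad, at -1.43 and -2.11 (difference 1.02). That difference was 0.67 without Quad replicate 2 and 0.93 without EDL replicate 1. In relative levels the order was Sol (-0.65 and -0.93) and Dia (-0.79 and -0.85), which overlapped, then EDL (-1.51 and -1.65) and Quad (-2.20 and -2.86). The region was not called in Sed or Ex. Thus the gene-body region of Slc2a4 was lower in Sol than in EDL (difference 0.51), while the upstream region was higher in Sol (EDL less Sol, -0.61), neither over 2-fold. The Slc2a4 window printed above, with its 2 copies of AGGTCA, lies in the upstream region. Its ATAC signal in Quad was at percentile 12.1 of the list, the lowest of the 40 member windows (median 88.1).

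Among the other enzymes, a region -6214 bases from the Ldha start, at chr7:46837476-46841704, had levels of 1.22 and 1.40 in EDL and 0.10 and 0.31 in Sol (difference 1.15, 2.22-fold). The region over Pygm, at chr19:6380808-6388950, had levels of 1.49 and 1.64 in Quad and 0.63 and 0.51 in Sol (difference 1.05, 2.07-fold), and 0.98 and 0.99 without Sol or Quad replicate 2. A region in an intron of Pkm, at chr9:59665743-59667756, was lower in Sol, at -1.45 and -1.06, than in Dia, at -0.32 and 0.09 (difference -1.13, or -0.93 without either Dia replicate 2 or Sol replicate 1). In each of these pairs no replicate of one group reached those of the other, and the lower group was Sol. By contrast the region over Eno3 differed by 0.18 between EDL and Sol and by 0.03 between Quad and Sol. In the latter pair the replicates overlapped (1.48 and 1.40, against 1.40 and 1.52). These Eno3 levels are per kb of unequal lengths, 12.3 kb in EDL and 12.6 kb in Quad against 6.54 kb in Sol.

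The input libraries bear on these calls. When the level less that of the input at the same region replaced the centring, the upstream region of Hk2 stayed over 2-fold apart between EDL or Quad and Sol. The upstream Slc2a4 differences became -0.57 for Quad less Sol, -0.76 for Quad less Dia and 0.49 for EDL less Quad. The Ldha difference became 0.60, that of Pygm 0.30 and that of Pkm -0.32. All kept their direction.

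H3K4me2 differed less. The member regions apart were 0 of 24 for EDL and Quad (background 0.453%), 1 of 20 for EDL and Sol (0.626%), 0 of 20 for EDL and Dia (0.678%), 2 of 19 for Quad and Sol (1.88%), 0 of 17 for Quad and Dia (1.58%) and 0 of 20 for Sol and Dia (0.439%). A region upstream of Pygm was higher in both fast muscles than in Sol. In Quad (chr19:6375901-6379308) it had levels of 0.53 and 0.41 against -0.78 and -0.98 in Sol, a difference of 1.39. In EDL (chr19:6375769-6378969) it had 0.30 and 0.21 against -0.68 and -0.87, a difference of 1.04 that became 0.94 without Sol replicate 2 and 0.98 without EDL replicate 1, and in Dia it was not called. The remaining region lay in an intron of Gys1, at chr7:45444263-45445662, with 0.23 and -0.09 in Quad and -0.92 and -1.32 in Sol (difference 1.22). Against input these differences became 0.62, 0.85 and 0.12.

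**Figure D3:**
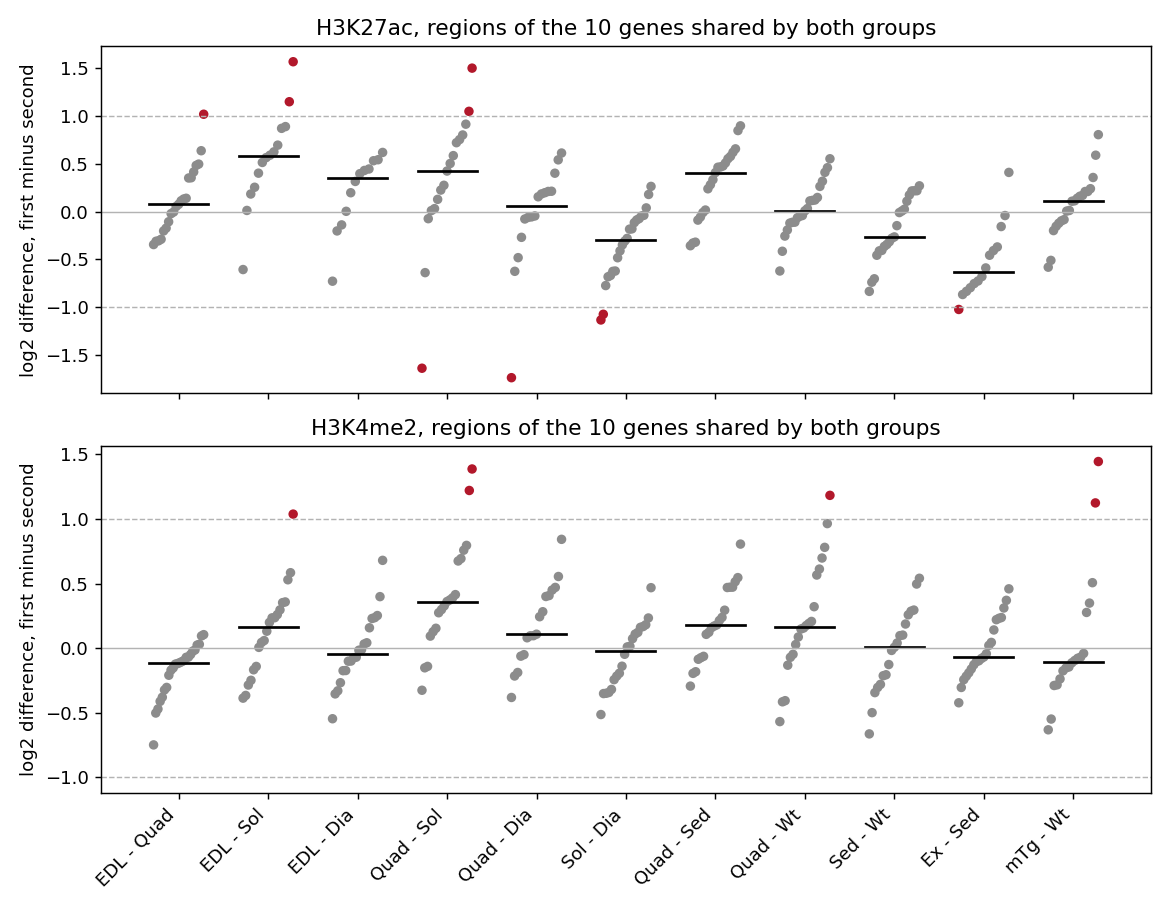
Difference in log2 level per kb, for H3K27ac (top) and H3K4me2 (bottom), at every member region shared by a pair of groups (points), for the 6 pairs of muscles, the treatment pairs and the pairs of untreated Quad groups. Red points were over 2-fold apart with replicates that did not overlap, and bars are medians, for H3K27ac 0.58 for EDL less Sol and -0.64 for Ex less Sed.

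MED1, a subunit of the mediator complex that bridges enhancers and promoters, was found at all 10 members in Quad, against 18.1% of genes with an H3K27ac peak in Quad. Of these 10 peaks, 9 lay within 1 kb of an annotated start, at Aldoa, Eno3, Hk2, Ldha, Pfkfb3, Pfkm, Pkm, Pygm and Slc2a4, and the other lay in intron 8 of Gys1. In EDL 4 members had a MED1 peak (Slc2a4, Pygm, Gys1 and Ldha), against 4.55% of genes, and in Dia 4 had one (Slc2a4, Hk2, Pygm and Gys1), against 12.3%. In Sol only Slc2a4 had one, against 21.1% of genes, although the Sol list was the longest, with 4070 peaks against 3593 in Quad, 2145 in Dia and 834 in EDL. With each list held to its 834 highest peaks, the members with a peak numbered 8 in Quad, 4 in EDL, 3 in Dia and 1 in Sol. Slc2a4 was the only member with a MED1 peak in all 4 muscles, always within 1 kb of its start. Its peak score lay at the 87.5th percentile of the list in Quad, 83.6th in EDL, 93.1st in Sol and 84.0th in Dia. Each list came from 1 library of pooled animals, so the differences have no replicate check.

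Counted by region, 9 of 32 member H3K27ac regions in Quad overlapped a MED1 peak (28.1%, against 3.76% of all Quad regions), 5 of 26 in EDL (19.2%, against 1.12%), 4 of 29 in Dia (13.8%, against 4.16%) and 1 of 31 in Sol (3.23%, against 5.34%). NFAT, a calcineurin-dependent transcription factor, had no peak named for a member in Quad, against 2.06% of genes, from a list of 485 peaks. In Sol 5 members had an NFAT peak (Slc2a4, Pfkm, Pygm, Ldha and Pfkfb3), against 49.7% of genes, from a list of 39661. At that background the Sol count says nothing particular to the members. Accessible chromatin was found in 20 of 32 member H3K27ac regions in Quad (62.5%), close to the 57.2% of all Quad regions. Among the 20000 highest ATAC peaks the shares were 56.2% and 34.1%. Member H3K27ac regions in Quad had a median length of 4.27 kb, against 1.55 kb over the list. These shares of regions that overlap a peak are thus not of regions of like length.

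**Figure D4:**
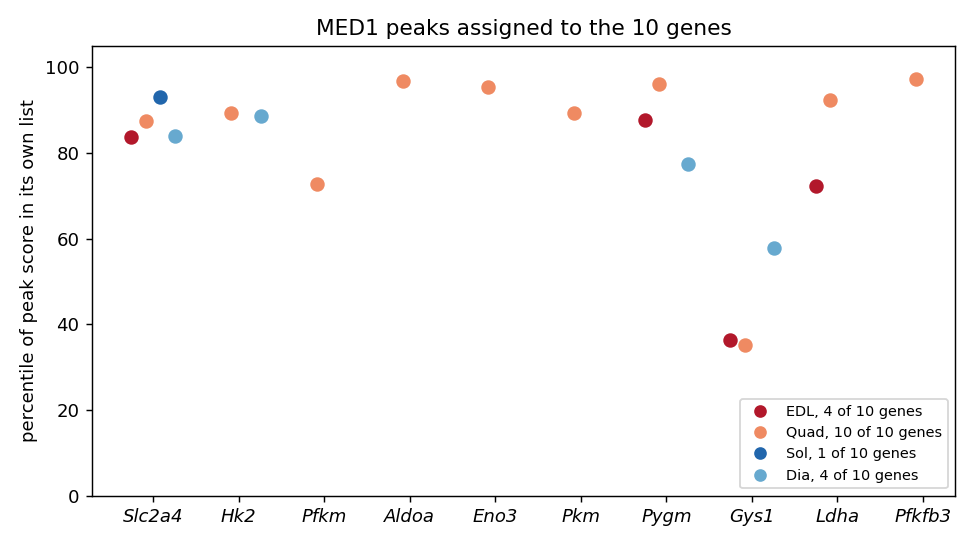
Percentile of the peak score of each MED1 peak named for a member within the list of its muscle (points, 1 library per muscle). Quad has a peak at all 10 members, EDL and Dia at 4 each and Sol at Slc2a4 alone.

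At most member regions the H3K27ac level was lower in the quadriceps of running mice than in that of sedentary mice, a difference given without a test. For 13 of the 14 member regions that Ex and Sed shared the level was lower in Ex, with a median difference of -0.64 on the log2 scale and a range of -1.02 to 0.41. Aldoa, Pkm and the gene body of Pygm had no matched H3K27ac region in this pair, so their levels were not compared. Replicates did not overlap at 10 of the 14, against 56.7% of shared regions, and 1 region was over 2-fold apart, against 3.17% of shared regions. That region covered the body of Pfkm, the phosphofructokinase of muscle, at chr15:98108121-98122712. Its centred levels were 0.40 and 0.18 in Ex and 1.42 and 1.12 in Sed, a difference of -1.02 (2.03-fold), which became -0.83 without Sed replicate 1, -0.95 without Ex replicate 2 and -0.89 against input. Without Sed replicate 2, 5 member regions were over 2-fold apart, a count given without the share over all regions in that setting.

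The member regions with smaller differences followed in the same direction. The upstream region of Hk2 was at -0.65 and -0.59 in Ex and 0.51 and -0.11 in Sed (difference -0.87), and the region over its gene body was at 0.33 and 0.17 against 1.06 and 0.80 (difference -0.73). The region -7001 bases from the start of Pygm differed by -0.83, the region -16795 bases from Ldha by -0.80, and the regions of Gys1 by -0.75 and -0.68. In all of these the replicates did not overlap. The region over Slc2a4, at 1.11 and 0.79 in Ex and 1.62 and 1.37 in Sed, differed by -0.59, with the wider Sed peak alone. With both Sed peaks summed, the relative levels of Ex (0.46 and 0.26) and Sed (0.67 and 0.38) overlapped. The Ldha promoter differed by -0.16 and the region -6252 bases from Ldha by -0.04, with replicates that overlapped. The only higher value in Ex was at a region -23667 bases from Hk2 (difference 0.41), where the replicates overlapped (-0.99 and -0.64, against -1.80 and -0.73).

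The other genes of glucose and glycogen metabolism on a list of 33 had the same main direction: 39 of their 49 shared regions were lower in Ex, with a median difference of -0.43, and 6 were over 2-fold apart, all lower in Ex. Over all shared regions 50% were lower in Ex by construction, and among the 10% of highest level 60.6% were, with a median of -0.07. The summed H3K27ac length was shorter in Ex than in Sed for 9 of 10 members, against 54.2% of genes: Pkm had 18.8 kb in Sed and 8.96 kb in Ex, Pygm 16.5 and 9.10 kb, and Slc2a4 5.53 and 2.82 kb, and Eno3 alone was longer, at 9.51 kb in Sed and 10.2 kb in Ex.

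Other values moved with this comparison. The untreated quadriceps groups differed at the same genes, since 15 of 21 member regions were higher in Quad than in Sed (median 0.41, 0 apart, background 1.07%). Between Sed and Wt the median was -0.27 (0 of 21 apart, background 0.495%), and between Quad and Wt it was 0.01 (0 of 21, background 1.36%). The fast fiber markers were covered over 50.1 kb of H3K27ac in Sed and 32.9 kb in Ex, and all 4 of their shared regions were lower in Ex (median -1.05, 2 over 2-fold). Slow fiber markers had peaks at 0 of 4 genes in Sed and 1 of 4 in Ex (2.20 kb). Endothelial markers covered 47.6 kb in Sed and 57.7 kb in Ex, fibroblast markers 17.0 and 30.7 kb, and immune markers 5.21 and 8.66 kb. The part of these shifts in the difference at the member regions was not tested.

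H3K4me2 in Ex and Sed showed no such direction. Of 21 shared member regions 12 were lower in Ex, with a median of -0.07 and a range of -0.42 to 0.46, and 0 were over 2-fold apart, against 0.0925% of shared regions.

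The PGC1α transgene was accompanied by no member H3K27ac region over 2-fold apart: 0 of 20, against 4.64% of shared regions. Of the 20 regions 13 were higher and 7 lower in mTg than in Wt, with a median difference of 0.11, and among the 10% of highest level 30.3% were lower in mTg. The lowest value was at a region -7350 bases from Ldha, at 0.16 and 0.51 in mTg and 1.05 and 0.84 in Wt (difference -0.58). The highest was at a region named Pygm, at chr19:6373469-6374233, with 0.10 and 0.34 in mTg and -0.76 and -0.36 in Wt (difference 0.80). The regions over Slc2a4 (0.24), Hk2 (0.16), Pfkm (0.17) and Aldoa (0.36) were each a little higher per kb in mTg, with replicates that did not overlap. Those over Eno3 (0.11) and Pygm (0.00) had replicates that overlapped. At Aldoa and Pfkm the level was divided by a much longer length in Wt. The Aldoa region was chr7:126796387-126804262 in mTg and chr7:126795414-126810404 in Wt. The Pfkm region was chr15:98107652-98121869 in mTg and chr15:98107993-98134920 in Wt. Total tags over these stretches were not compared. Summed H3K27ac length was shorter in mTg for 8 of 10 members, against 66.8% of genes, so the members did not stand far from the background, in a pair where the mTg libraries were also the shallower (11.7 M and 12.7 M tags, against 14.9 M and 14.1 M).

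For H3K4me2, 2 of 18 member regions were over 2-fold apart between mTg and Wt, against 0.724% of shared regions, both higher in mTg. They were a region -18833 bases from Ldha, at chr7:46826599-46827344, with -0.38 and -0.20 in mTg and -1.60 and -1.90 in Wt (difference 1.44), and a region named Pygm at chr19:6373541-6374302, with -0.26 and -0.68 against -1.63 and -1.59 (difference 1.12). Both directions turned when the difference from input replaced the centring, to -1.08 for Ldha and -0.37 for Pygm, and 1 of these libraries (mTg replicate 1) was the shallowest of all. Without that library the Pygm difference was 0.92, under 2-fold.

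The lists of differentially acetylated regions gave a second view, because the 4 libraries of a comparison were normalized together there. The study chose these regions for differing in these libraries, so the tests here measure how far the replicates separate and are not independent evidence. Among regions hypoacetylated in Ex against Sed, 2 of 10 members had a region, Pfkfb3 and Pfkm, against 10.6% of genes with an H3K27ac peak. Among hyperacetylated regions 0 of 10 had one, against 2.34%. The Pfkm region lay at chr15:98050052-98052605, -41261 bases from the start and within an intron of the neighbouring gene Senp1. Its deposited log2 tag values were 6.35 and 5.99 in Ex and 7.11 and 6.75 in Sed, a difference of -0.76 (SE 0.21, n = 2 a group, limma with Benjamini-Hochberg adjustment over the list, adjusted p = 7.88e-04).

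Pfkfb3 had hypoacetylated regions within its own gene. At chr2:11508151-11510782 the log2 values were 5.70 and 5.98 in Ex and 6.59 and 6.39 in Sed, a difference of -0.65 (limma, adjusted p = 0.0034). At chr2:11487860-11488945 they were 3.93 and 3.95 in Ex and 4.72 and 4.22 in Sed, a difference of -0.53 (limma, adjusted p = 0.0148). At each of the 3 member regions both Ex replicates were below both Sed replicates, and all 3 passed an adjusted p of 0.05, as did 99.7% of the 2280 regions in that list. Without Ex replicate 1 or Ex replicate 2, 1 of the 3 passed in either case, and without Sed replicate 1, 2 did.

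With the transgene, Pfkfb3 was the member with regions in the hyperacetylated list, 1 of 10 against 9.22% of genes, and no member had a hypoacetylated region, against 4.38%. These 3 regions were not those lowered in Ex. They lay at the upstream start of Pfkfb3 or beyond it. At chr2:11552830-11553778 the log2 values were 5.97 and 6.00 in mTg and 5.29 and 5.53 in Wt, a difference of 0.57 (limma, adjusted p = 1.72e-04). At chr2:11568473-11569131, -14873 bases from the start, they were 4.27 and 4.42 against 3.76 and 3.87, a difference of 0.53 (limma, adjusted p = 3.37e-04). At chr2:11570259-11571237, -16819 bases from the start, they were 4.15 and 4.73 against 3.90 and 3.88, a difference of 0.55 (limma, adjusted p = 0.0010). All 3 passed, as did 100% of the 1828 regions in the list. The last did not pass without mTg replicate 2 (difference 0.26, limma, adjusted p = 0.1148), Wt replicate 1 (0.0608) or Wt replicate 2 (0.0686).

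The other glucose and glycogen genes were also in these lists. In the hyperacetylated list of Ex they had 0 regions, against 2.34% of genes. In the hypoacetylated list of Ex, 13 of the 30 with an H3K27ac region in Ex or Sed had 23 regions, against 10.6% of genes. Among them were Ppp1r3a (-0.98) and Ppp1r3c (-0.93), which encode subunits that target protein phosphatase 1 to glycogen, and Phkb (-0.88) and Phkg1 (-0.86), subunits of phosphorylase kinase. In the hyperacetylated list of mTg, 8 of 32 had 15 regions, against 9.22% of genes. These genes included Gbe1, the glycogen branching enzyme (1.06), Ppp1r3c (1.02), Tbc1d4, a regulator of GLUT4 traffic (1.02), and Pfkl, the liver phosphofructokinase (0.78). In the hypoacetylated list of mTg 2 of 32 had 5 regions, near the background of 4.38% of genes, with Phkb at -1.39 and Ppp1r3a at -0.75. Ppp1r3a also had a region in the hyperacetylated list of mTg (0.46). The Ppp1r3c regions of Ex and mTg were different places. Each of the 3 Phkb regions lowered in Ex overlapped a region lowered in mTg, as did 1 of Ppp1r3a. A region of Tbc1d4, singled out after its values were seen, was lowered in Ex (-0.68, not passing without Ex replicate 2) and overlapped one raised in mTg (0.78).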

How the data were processed

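H3K27ac and H3K4me2 ChIP-seq peak lists of 8 groups, 4 lists of differential H3K27ac regions, MED1 and NFAT peak lists and the control Quad ATAC list were used. Groups followed the labels' titles and the tissue, treatment and genotype given there. The authors aligned reads to mm10, kept 1 tag per position and called histone peaks with HOMER and DESeq2 over both replicates against input. The deposited tag columns of these lists are on a log2 scale, normalized within each list, and the log2 fold over input and the adjusted p-value against input are the authors' own values, used here as filters in alternatives. The deposited peak score orders the peaks of a list. The ATAC list gives a signal (tags per peak) and a fold ratio over the local background, both deposited by the authors. In the differential lists, the columns of the authors' comparisons (fold changes and p-values) were not used.

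A level was the log2 value less log2 of the length in kb. Differences between lists were taken at regions with a reciprocal overlap of at least 50%, after subtracting each library's median over the shared regions, and are given as values, with no test. Group differences were computed from replicate means and centred on the median difference. In the differential lists limma 3.58.1 (R 4.3.3) was fitted to all regions of a list with Benjamini-Hochberg adjustment, and was first tested on simulated data. Tables were handled with Python 3.11.15, pandas 2.3.3 and numpy 2.4.6, sequences with pysam 0.24.0, and figures with matplotlib 3.10.9. The other glucose and glycogen genes (33) and the cell type markers were fixed lists.

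All members are described, with each member region that was over 2-fold apart or in a differential list, and of the other genes at most 5 per differential list by the size of the difference. Some of the latter are not reported here by name. The members and lists were chosen with earlier results of these data known. The p-values measure only the spread between 2 samples a group. Histone libraries held 6.41 M to 24.2 M tags. MED1, NFAT and ATAC lists have no replicate columns and so no error.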

Additional observations from a re-analysis of the deposited data

How the results depend on the processing

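With 9 H3K27ac and 3 H3K4me2 member regions over 2-fold apart between muscles, an overlap of at least 80% left 2 and 0, and levels not divided by width gave 18 and 6. The difference from input gave 6 for each mark, and centring on the regions called in all 8 groups, an alternative chosen after seeing the data, gave 5 for H3K27ac. Leaving out each library gave 7 to 10 and 2 to 3. For Ex and Sed H3K27ac (1), levels not divided by width gave 5, the added centring 0, and leaving out each library 0 to 5. For mTg and Wt, H3K27ac (0) gave 1 against input and 0 to 1 on leaving out a library, while H3K4me2 (2) gave 0 at 80% overlap, 4 against input, 4 without division by width and 1 to 2 on leaving out a library. At 80% overlap fewer regions are compared. These counts are given without the share of all shared regions over 2-fold apart under the same setting. A higher or lower count therefore cannot be read as particular to the members. The other causes were not tested. Against input the H3K4me2 differences of mTg less Wt turned to -1.08 at Ldha and -0.37 at Pygm. Of 156 alternatives for the 15 named regions, 122 kept the call, 32 lost it and these 2 turned. Named regions no longer matched at 80% overlap are left out of the 156 and are not counted as lost.

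In the differential lists, 3 member regions passed for Ex and 3 for mTg. Leaving out each library gave 1 to 3 and 2 to 3. With the replicate number as a block, 3 and 3 passed. Correlations of same-numbered deviations were 0.14, 0.11, -0.04 and -0.24 over the 4 lists, and with 2 pairs the samples share only a number. The authors' adjusted p under 0.001 was not run as a threshold of these lists, because the columns of their comparisons were not used. The adjusted p of limma under 0.001, chosen after seeing the data, left 1 for Ex and 2 for mTg.

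Member peak counts (260 and 256) stayed within 1.5 times, at 179 and 178 with the authors' adjusted p against input under 0.001. Assigning peaks by overlap with the gene, also added after seeing the data, gave 221 and 245.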
